A study of Oryza sativa with 35 samples.

Results

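The libraries described here are the 2 latest stages of inflorescence meristems of the rice cultivar Koshihikari, 3 libraries labelled R5 (replicates 2, 3 and 5) set against 3 labelled R4 (replicates 2, 3 and 4), taken by their column names. These 6 are among 35 libraries of the series, which also holds 5 Koshihikari libraries at R2 and 5 at R1, and 19 of NIL-Gn1, which has 2 libraries at R5, 1 at R4, 8 at R2 and 8 at R1. The labels name no transgene, mutation or treatment for Koshihikari, and all 6 libraries share short-day growth in climate chambers, with days of 10 h at 27 °C and nights of 14 h at 25 °C. R1 to R5 are not defined in the labels and are read here only as an order. Nothing in the labels ties replicates to plants, so p-values measure the spread between libraries, which may be technical.

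The inflorescence meristem is the dome of dividing cells at the shoot tip that, once rice has been induced to flower, forms the branches of the panicle. Branch meristems later stop making branches and become spikelet meristems, which form the flowers. KNOX homeobox genes mark meristem cells, and ALOG and SPL transcription factors are known to set how long branching goes on. AP1/FUL-like MADS genes mark the move to flowering, and genes for floral organs act after it.

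RNA was counted by CEL-Seq2, which tags each captured 3′ end with a unique molecular identifier (UMI), so that a count is of molecules rather than of PCR copies. The R5 libraries held 109742 to 135923 UMIs on 13284 to 14119 loci, and the R4 libraries 106508 to 115991 UMIs on 12932 to 13349 loci. A level of a single gene below is in CPM (the library's counts rescaled to a common total), over the tested loci and scaled by the trimmed mean of M-values. Floors and summed levels of lists are instead CPM of all UMIs of a library, without that scaling. On this scale of all UMIs, 3 UMIs in a library were worth 22.1 to 27.3 CPM at R5 and 25.9 to 28.2 CPM at R4. The same 3 UMIs are worth more on the scale of single genes, so floors and sums are not to be compared with single levels. CPM are compared between libraries for 1 gene and not between genes. In such bulk samples, fewer cells of a type and less RNA per cell cannot be told apart. Outside the 6, replicate 1 of Koshihikari R2 stood apart from the other libraries at -58.8 on the second principal component, and calls, distances and scores that rest on it are also given without it, whereas R2 means include it.

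Markers of meristem tissue and of floral organs were each detected in part. OSH1 (LOC_Os03g51690), the KNOX gene that maintains the meristem, had 221, 255 and 313 CPM in the R5 libraries, against 142, 267 and 177 CPM in the R4 libraries. The groups overlapped, and the log2 fold change was 0.43 ± 0.36 (SE). OSH15 (LOC_Os07g03770), a second KNOX gene, averaged 79.2 ± 21.1 CPM at R5 and 85.3 ± 28.8 CPM at R4 (SD, n = 3 each). The 5 tested meristem maintenance genes of 11 listed had a median log2 fold change of 0.30, and none was called. OSH43, FON2, FCP1 and WOX4 of that list had 0 UMIs in all 6 libraries. Of the 15 floral organ identity genes listed, 2 had enough UMIs to be tested, DL and OsMADS32. DL, a YABBY gene of carpels and leaf midribs, averaged 103 ± 65.7 CPM at R5 and 105 ± 51.9 CPM at R4 (SD, n = 3 each). The other 13 had 8 UMIs or fewer in each group, and OsMADS3, OsMADS58, OsMADS13 and OsMADS17 had 0 UMIs in all 6 libraries. On the scale of all UMIs, a count of 0 over a group allows up to 8.00 CPM at R5 and up to 9.04 CPM at R4. OsMADS1, which specifies the floret, had 5 UMIs in the R5 libraries together and 0 in the R4 libraries.

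No locus was called between R5 and R4 at a Benjamini-Hochberg adjusted p under 0.05 by edgeR's quasi-likelihood test over 7406 tested loci, which is 0% called. The smallest adjusted p was 0.0569, and 3 loci had one under 0.1. Without the R2 library that stood apart, whose spread enters the shared estimate, 1 locus was called, the aquaporin gene OsPIP2;6. DESeq2 called 1 and limma-voom 1. Unless another tool is named, every fold change and p of a single gene below comes from the fit that gave no call. At an unadjusted p under 0.05, 536 loci passed, which is 7.24% of those tested, where 5% would pass if no locus differed. Of these, 276 (3.73%) were higher at R5 and 260 (3.51%) were lower. The share of tested loci estimated to have no difference was 95.3%.

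At these depths the typical difference of the late step was smaller than the error of a single locus. Over all tested loci the same held for the earlier steps given below. The median size of the log2 fold change was 0.38, against a median standard error of 0.55, and the median log2 fold change with its sign was -0.00. Among the 2405 loci with a mean of at least 100 CPM over the 35 libraries, the median size was 0.24 and the median standard error 0.36. For 1351 of those loci (56.2%) the 95% interval lay wholly inside a 2-fold change in either direction, against 1492 of all 7406 (20.1%). At 300 CPM or more, 87.7% of 561 loci were bounded in this way, whereas between 20 and 50 CPM 0.222% of 2257 loci were. The data therefore limit the change of abundant transcripts and say little of the scarce ones. The interval lay wholly beyond 2-fold for 23 loci. These intervals are not adjusted for the 7406 loci tested, so the 23 are not calls.

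The earlier steps of the same cultivar were measured in the same fit and are set side by side, since they share libraries with this one. R4 against R2 gave 444 called loci (6%), 255 higher and 189 lower, with 20% of loci at an unadjusted p under 0.05. Without R2 replicate 1 it gave 331, of which 193 were higher and 138 lower, with 18.6% of loci at an unadjusted p under 0.05. With R2 cut to replicates 2, 3 and 4, so that 3 libraries again faced 3, it gave 316 and a median standard error of 0.54, close to that of the late step. With all R2 libraries, the median size of log2 fold change for R4 against R2 was 0.48, against a median standard error of 0.50. Among the 2405 abundant loci these were 0.37 and 0.32. R2 against R1, with 5 libraries against 5, gave 0% called and 5.93% at an unadjusted p under 0.05. Its median standard error was 0.41, against 0.55 for the late step, so the 2 shares rest on unequal precision. Its median size of log2 fold change was 0.26, against 0.38. Without R2 replicate 1 it gave 0 called, 5.46% and a median standard error of 0.43. R5 against R2 gave 511 called loci (6.9%), and 465 without R2 replicate 1. These counts were not tested against each other.

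**Figure D1:**
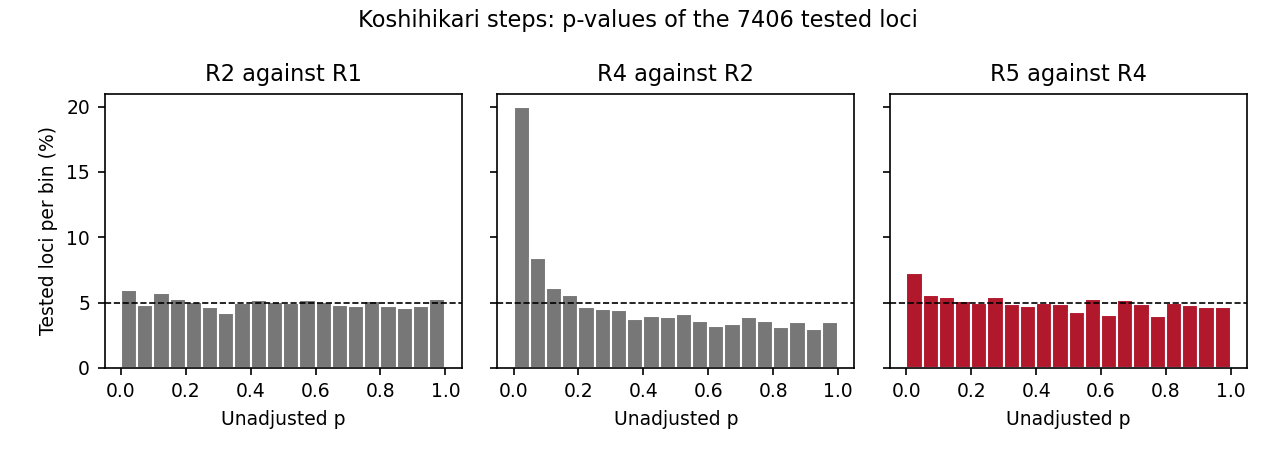
Share of the 7406 tested loci (y axis, %) in each of 20 bins of unadjusted p (x axis) for 3 steps of Koshihikari in stage order, with a dashed line at the 5% expected where no locus differs. The first bin holds 7.24% for R5 against R4, 5.93% for R2 against R1, which has more libraries, and 20% for R4 against R2.

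Distances between whole libraries gave the same order of sizes for R5 against R4 and R4 against R2. The root mean square difference in log2 CPM over the 2405 abundant loci was 0.597 to 0.669 between an R5 and an R4 library, with a median of 0.635 over 9 pairs. Within R5 it was 0.595 to 0.616, and within R4 it was 0.599 to 0.636, so the pairs across stages overlapped those within a stage. Pairs of an R4 and an R2 library lay at 0.750 to 1.01, beyond all pairs of R5 and R4, but R2 libraries also lay 0.522 to 0.899 from each other. Without R2 replicate 1 the pairs of R4 and R2 lay at 0.750 to 0.859, and those within R2 at 0.522 to 0.710. On the first principal component, which carried 14.5% of the variance of all 35 libraries, R5 scored 40.2 ± 4.50 and R4 34.2 ± 1.91 (SD, n = 3 each), with R2 at -10.1 ± 2.44 (SD, n = 5). The R5 and R4 scores overlapped, and their difference of 6.05 had an exact two-sided permutation p of 0.2. The difference was 3.23 with components over the 16 Koshihikari libraries (p = 0.2, exact) and 2.89 with a mean count of at least 10 (p = 0.3, exact). With components computed without R2 replicate 1 it was 6.51 (p = 0.2, exact), with R2 at -10.6 ± 2.64 (SD, n = 4). On the second component, R5 scored -5.00 ± 4.54 and R4 8.41 ± 3.59, without overlap, at p = 0.1 in the same exact test. Without R2 replicate 1 the second component was another axis, with an arbitrary sign, on which R5 scored -3.55 ± 3.20 and R4 -11.2 ± 4.18, again without overlap and at p = 0.1 in the exact test. With 3 libraries against 3, 0.1 is the smallest p the test can give.

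**Figure D2:**
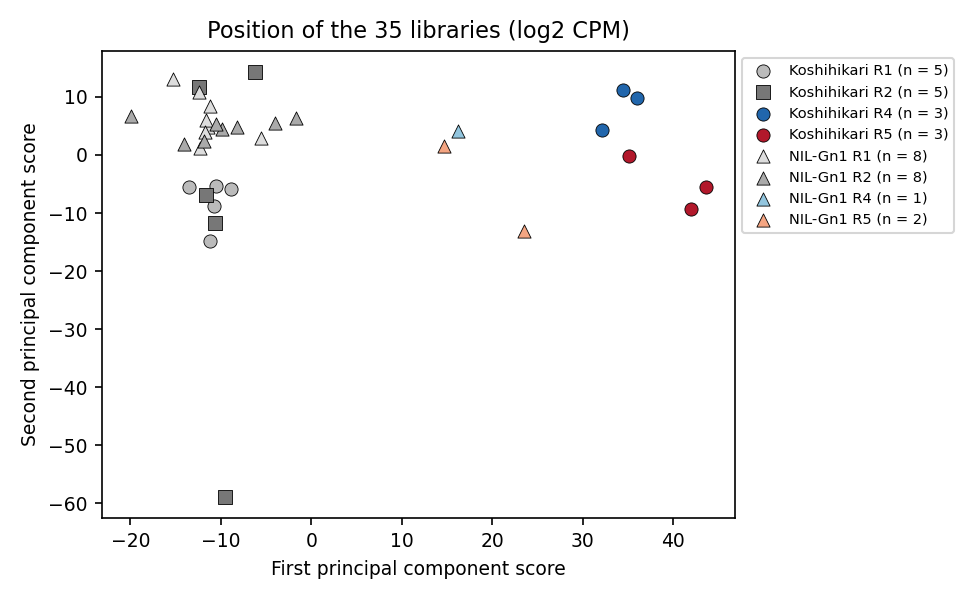
First (x axis) and second (y axis) principal component scores of log2 CPM for each of the 35 libraries, 1 point per library, with Koshihikari R5 in red and R4 in blue. Both late Koshihikari groups lie at 32.2 or more on the first axis, and on the second the R5 points lie below the R4 points; the lowest point is R2 replicate 1.

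OsPIP2;6 (LOC_Os04g16450), which encodes a water channel of the plasma membrane, came nearest to a call. It had 1521, 1539 and 1164 CPM in the R5 libraries, against 910, 656 and 653 CPM in the R4 libraries. Every R5 library was above every R4 library; groups that do not overlap, in either direction, were found for 875 of the 7406 loci (11.8%). The log2 fold change was 0.93 ± 0.20 (SE), a 1.90-fold higher level, with an adjusted p of 0.0569. It passed 0.05 in 9 of 15 alternative analyses, with adjusted p from 0.00581 to 0.402. In stage order, the mean of OsPIP2;6 was 628 ± 59.5 CPM (R1), 544 ± 170 CPM (R2), 740 ± 147 CPM (R4) and 1408 ± 211 CPM (R5) (SD, n = 5, 5, 3 and 3). R5 against R2 was called, at a log2 fold change of 1.35 and an adjusted p of 2.7e-09, and without R2 replicate 1 at 1.53 and 2.34e-11. The gene was named after its values were seen.

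Its relatives were therefore looked at as a list made afterwards, which is no independent evidence. Of 11 plasma membrane intrinsic protein genes, 5 were tested, and OsPIP2;6 is among the 4 with a positive log2 fold change. The median of the 5 was 0.45, against -0.00 over all loci. OsPIP1;1 (LOC_Os02g44630) had 500, 653 and 235 CPM at R5, against 307, 267 and 277 CPM at R4, and OsPIP2;1 (LOC_Os07g26690) had 414, 565 and 539 CPM at R5, against 395, 369 and 343 CPM at R4. OsPIP1;1 overlapped between the groups and OsPIP2;1 did not, and both had an adjusted p of 0.68. On the scale of all UMIs, the summed level of the listed aquaporins was 1766 to 2397 CPM in the R5 libraries and 1164 to 1473 CPM in the R4 libraries. This sum includes OsPIP2;6 and cannot be set against the single levels above, which are scaled otherwise. These genes are near copies of one another, so reads could be split between them in the counting.

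G1L2 (LOC_Os06g46030) was the lower gene with the smallest p. It belongs to the ALOG family of DNA-binding proteins, whose best known rice member, TAW1, keeps meristems branching. It had 48.1, 22.1 and 8.69 CPM in the R5 libraries, against 132, 103 and 144 CPM in the R4 libraries, from 8 UMIs in all at R5 and 35 at R4. All R5 values were below all R4 values. The log2 fold change was -2.24 ± 0.51 (SE), with a 95% interval of -3.25 to -1.23 and an adjusted p of 0.0755. In stage order, the mean of G1L2 was 329 ± 89.4 CPM (R1), 298 ± 52.9 CPM (R2), 126 ± 21.2 CPM (R4) and 26.3 ± 20 CPM (R5) (SD, n = 5, 5, 3 and 3). R4 against R2 was called for this gene, at -1.23 and an adjusted p of 0.00587, and without R2 replicate 1 at -1.20 and 0.00971.

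The ALOG family, again a list made after G1L2 had been seen, was mostly lower a step earlier. Between R4 and R2, 5 of the 6 tested members were called lower, G1L2 and TAW1 among them, where 189 of all 7406 loci (2.55%) were. The same 5 were called lower without R2 replicate 1, with adjusted p up to 0.00971. Between R5 and R4 no member was called. At the late step 5 of the 6 had a negative log2 fold change, with a median of -1.28. G1L1 (LOC_Os02g07030) had 77.0, 111 and 52.1 CPM at R5, against 142, 164 and 177 CPM at R4, without overlap and with an adjusted p of 0.469. TAW1 itself had 212, 88.6 and 139 CPM at R5 and 132, 82.0 and 288 CPM at R4, from 46 UMIs at each stage. Its log2 fold change was -0.16, with a 95% interval of -0.77 to 0.46, whereas R4 against R2 stood at -2.42 with an adjusted p of 1.76e-14, and without R2 replicate 1 at -2.49 with 5.16e-16. The summed level of the listed ALOG genes, on the scale of all UMIs, was 280 to 319 CPM at R5 and 366 to 742 CPM at R4.

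Of the loci with no name in the files or tables, LOC_Os12g41230 was lower, with 231, 299 and 304 CPM at R5 against 548, 584 and 586 CPM at R4. Its groups lay far apart, at a log2 fold change of -1.04 ± 0.24 (SE) and an adjusted p of 0.0755. The R4 level stood above both neighbours in stage order, since R2 averaged 286 ± 66.6 CPM and R1 372 ± 47.6 CPM (SD, n = 5 each). LOC_Os02g49760 had 67.4, 55.3 and 34.7 CPM at R5, against 0 in each R4 library. That is 16 UMIs against 0, with an adjusted p of 0.117. With 3 UMIs over the R4 group taken as the floor, the level was 4.72-fold higher, counting error of the 16 UMIs aside. Here R4 was the group that stood apart, because R2 averaged 54 ± 22.5 CPM and R1 70.4 ± 40.9 CPM (SD, n = 5 each).

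LOC_Os03g14140, chosen after its values were seen, averaged more at each later stage. It had 1049, 1151 and 591 CPM at R5, against 208, 246 and 365 CPM at R4, without overlap. The log2 fold change was 1.76 ± 0.47 (SE), a 3.39-fold higher level, with an adjusted p of 0.341. The call depended on the fit: the adjusted p was 4.87e-05 with only the R5 and R4 libraries and 0.00901 with no filter on low counts. In stage order the mean was 1.79 ± 3.99 CPM (R1), 18.2 ± 18.7 CPM (R2), 273 ± 81.8 CPM (R4) and 930 ± 299 CPM (R5) (SD, n = 5, 5, 3 and 3). In NIL-Gn1 it had 1307 and 853 CPM at R5, against 304 CPM at R4.

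**Figure D3:**
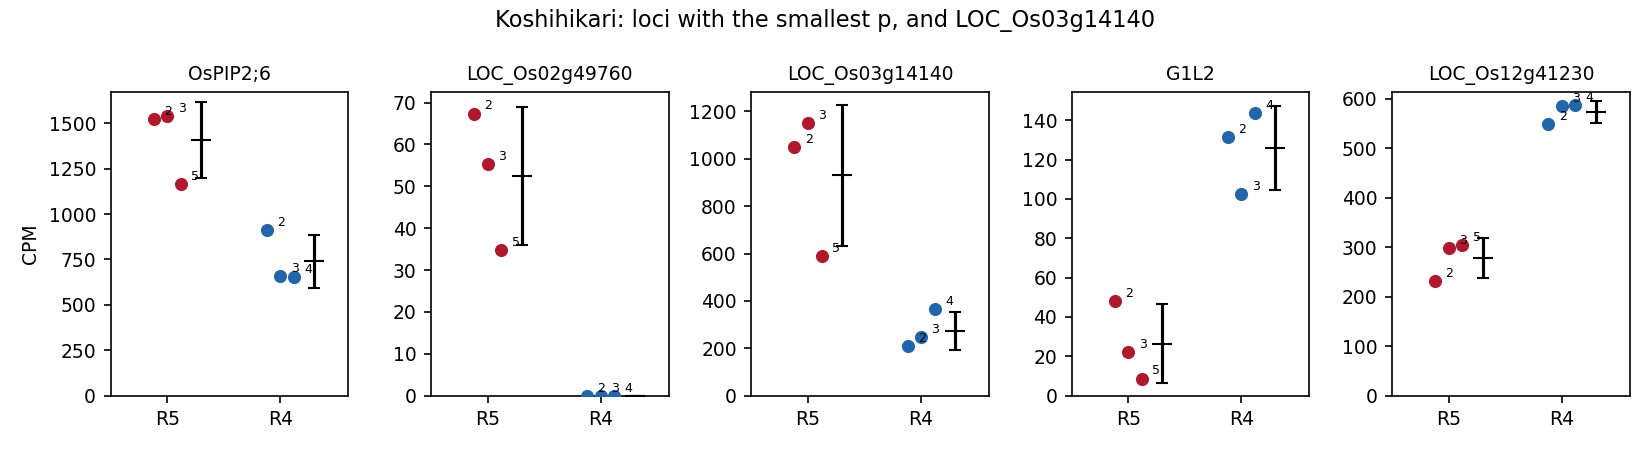
CPM (y axis, each panel on its own scale from 0) of 5 loci in the 3 R5 libraries (red, left) and the 3 R4 libraries (blue, right) of Koshihikari, numbered by replicate, with the mean and SD as a bar. In each of the 5 panels the groups do not overlap, as in 11.8% of all 7406 loci, but these 5 were chosen by their p or values. OsPIP2;6 and both unnamed loci beside it are higher at R5, G1L2 and LOC_Os12g41230 lower.

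Lists of genes known from panicle development, hormones, growth and other tissues were read against this background. Of 125 listed genes, 76 were tested, and 21 had no UMI in the 6 libraries. None was called. Unadjusted p-values under 0.05 were found for 7 genes (9.21%), 4 higher and 3 lower, where 7.24% of all loci passed, so the lists stood near the background.

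Among 9 tested regulators of branches and spikelets, 6 had a negative log2 fold change, with a median of -0.27. SNB (LOC_Os07g13170), an AP2-type factor that times the passage from spikelet to floral meristem, had 67.4, 77.5 and 34.7 CPM at R5, against 175, 92.3 and 155 CPM at R4. RFL (LOC_Os04g51000), the rice counterpart of LEAFY, had 67.4, 111 and 86.9 CPM at R5, against 175, 113 and 210 CPM at R4. In both genes the groups did not overlap, although for RFL the highest R5 library and the lowest R4 library differed by little. The log2 fold changes were -1.25 ± 0.46 (SE) with an adjusted p of 0.50 for SNB, and -0.91 ± 0.40 with 0.606 for RFL. R5 against R2 was called for SNB, at -1.62 and an adjusted p of 0.00435, and without R2 replicate 1 at -1.70 and 0.00262. OsSPL14 (LOC_Os08g39890), which promotes panicle branching, ranged more within a stage than between stages, with 135, 376 and 304 CPM at R5 against 318, 236 and 166 CPM at R4.

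Of 5 tested MADS genes of the move to flowering, 4 had a positive log2 fold change, with a median of 0.22. The AP1/FUL-like gene OsMADS15 (LOC_Os07g01820) had 847, 874 and 756 CPM at R5, against 482, 595 and 409 CPM at R4. The groups did not overlap, and the log2 fold change was 0.73 ± 0.60 (SE) with an adjusted p of 0.868. This depended on the fit. In edgeR's test with only the R5 and R4 libraries, the unadjusted p was 0.00088, against 0.233 in the main fit, and the adjusted p 0.166. At R2 the libraries spread widely at this gene, at 207 ± 161 CPM (SD, n = 5). R5 against R2 was called, at 2.13 and an adjusted p of 0.024, and without R2 replicate 1 at 2.05 and 0.0438. Its paralog OsMADS14 (LOC_Os03g54160) had 414, 221 and 365 CPM at R5, against 296, 369 and 199 CPM at R4, which overlapped. OsMADS32 (LOC_Os01g52680), a MADS gene of floral organs found in monocots, averaged 90.2 ± 4.70 CPM at R5 and 146 ± 80.3 CPM at R4 (SD, n = 3 each), at a log2 fold change of -0.69.

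No growth or division gene was called. The 10 growth-regulating factor and GIF coactivator genes, which promote cell proliferation in young organs, split 5 to 5 with a median of 0.01. OsGRF8 (LOC_Os11g35030) had 212, 155 and 165 CPM at R5, against 65.8, 103 and 111 CPM at R4, without overlap, at 0.93 ± 0.38 (SE) and an adjusted p of 0.561. OsGRF7 (LOC_Os12g29980), the most abundant of them, averaged 411 ± 77.2 CPM at R5 and 343 ± 83.7 CPM at R4 (SD, n = 3 each). PCNA (LOC_Os02g56130), the sliding clamp of DNA replication, averaged 358 ± 37.2 CPM at R5 and 376 ± 9.71 CPM at R4. Its 95% interval of -0.57 to 0.43 lay inside a 2-fold change. Of 13 cell division and replication genes, 9 had a negative log2 fold change and 4 a positive one, with a median of -0.18, and in NIL-Gn1 2 were positive, with a median of -0.38. Of 8 histone H4 genes, near copies whose reads may be split, 5 were positive, with a median of 0.04. The H4 locus with the highest level, LOC_Os09g38020, averaged 1348 ± 290 CPM at R5 and 1518 ± 236 CPM at R4. The 4 HD-ZIP III genes had a median of -0.01. Among them OSHB4 (LOC_Os03g43930), a factor of shoot meristem and leaf polarity, averaged 657 ± 41.5 CPM at R5 and 611 ± 94.0 CPM at R4, with an interval of -0.32 to 0.53.

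All 5 tested gibberellin genes had a positive log2 fold change, with a median of 0.29 and none called. The receptor GID1 (LOC_Os05g33730) had 308, 210 and 339 CPM at R5, against 219, 164 and 77.4 CPM at R4, at 0.90 ± 0.40 (SE) and an adjusted p of 0.635. Its groups overlapped at their edge. OsGA20ox1 (LOC_Os03g63970), a late enzyme of gibberellin synthesis, averaged 368 ± 106 CPM at R5 and 301 ± 92.6 CPM at R4 (SD, n = 3 each). In NIL-Gn1, 2 of the 5 genes were positive between the same stages. The 4 tested cytokinin genes had a median of -0.25. Among them OsCKX3 (LOC_Os10g34230), which breaks cytokinin down, had 1 UMI at R5 and 8 at R4, too few for a firm ratio (0.111, exact 95% counting interval 0.00249 to 0.825). The response regulator OsRR2 (LOC_Os02g35180) averaged 96.9 ± 41.8 CPM at R5 and 87.2 ± 45.9 CPM at R4.

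Photosynthesis genes, listed as markers of green tissue, were higher at R5 on average without a call. Of 9 listed, 6 were tested and all 6 had a positive log2 fold change, with a median of 0.72, against -0.00 over all loci. CAB2R (LOC_Os01g41710), a chlorophyll-binding protein of the light-harvesting antenna, had 289, 819 and 660 CPM at R5, against 153, 267 and 299 CPM at R4, at 1.29 ± 0.60 (SE) and an adjusted p of 0.665. LHCB5 (LOC_Os11g13890), a minor antenna protein, had 404, 266 and 452 CPM at R5, against 230, 246 and 210 CPM at R4, at 0.72 ± 0.31 (SE) and an adjusted p of 0.579. In edgeR's test with only the R5 and R4 libraries, the adjusted p was 0.101 for CAB2R and 0.524 for LHCB5. CAB2R overlapped between the groups by 1 library and LHCB5 did not overlap. CAB1R (LOC_Os09g17740), a second antenna gene, averaged 868 ± 265 CPM at R5 and 616 ± 283 CPM at R4 (SD, n = 3 each), and LHCA1 (LOC_Os06g21590) 130 ± 37.5 CPM at R5 and 128 ± 35.6 CPM at R4.

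The summed level of the photosynthesis list, on the scale of all UMIs, was 1384, 1668 and 2362 CPM in the R5 libraries. In the R4 libraries it was 805, 1069 and 1530 CPM, so the groups overlapped. It was 391 to 718 CPM at R2 and 321 to 651 CPM at R1. The listed genes of carbon fixation had few UMIs: RBCS2 had 3 UMIs at R5 and 0 at R4, RBCS4 0 and 1, and RCA 0 and 1. In NIL-Gn1 the 6 genes were positive as well, with a median of 0.80 and no call. Whether leaf or other green tissue was part of the samples, and its part in the other values, was not tested.

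**Figure D4:**
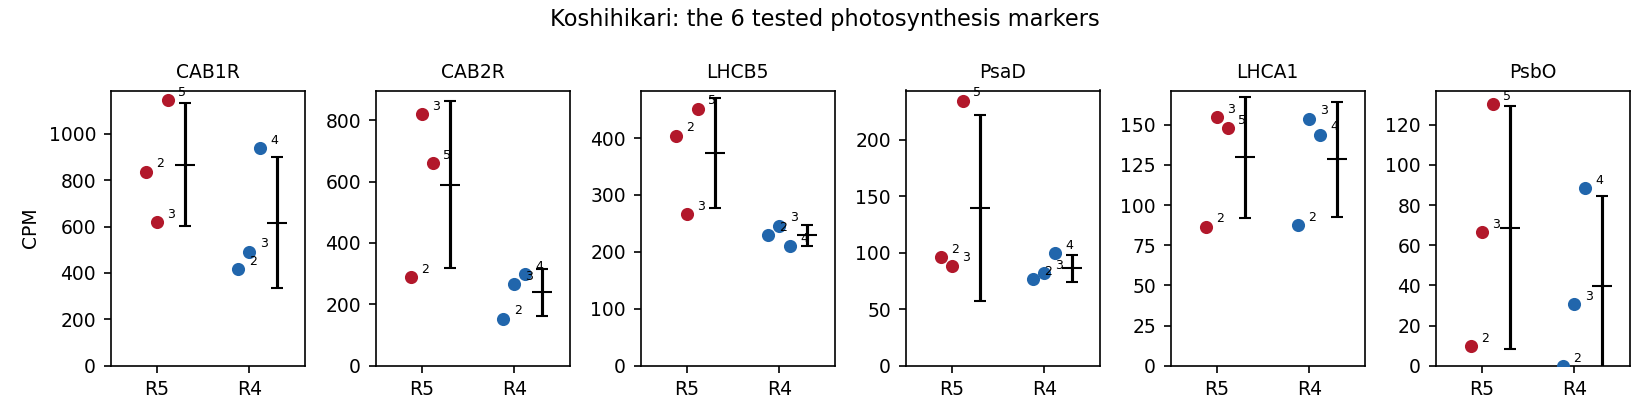
CPM (y axis, each panel on its own scale from 0) of the 6 tested photosynthesis markers in the 3 R5 libraries (red, left) and the 3 R4 libraries (blue, right) of Koshihikari, numbered by replicate, with the mean and SD as a bar. Within each stage the libraries spread widely, and LHCB5 alone shows no overlap.

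Of 4 tested genes in the list of YABBY markers of lateral organs, 3 had a positive log2 fold change and none was called. DL, listed with the floral organ genes above, is not among them and had a log2 fold change of 0.02. OsYABBY5 (LOC_Os04g45330), the most abundant, had 789, 686 and 660 CPM at R5, against 504, 482 and 609 CPM at R4, without overlap, at 0.42 ± 0.23 (SE) and an adjusted p of 0.72. R5 against R2 was called for it, at 1.04 and an adjusted p of 0.000262, and without R2 replicate 1 at 1.02 and 0.000551. OsYABBY3 was the negative one, at -1.04 ± 0.64 (SE) and an adjusted p of 0.772, with 9 UMIs at R5 and 17 at R4. The median of the 4 was 0.27. On the scale of all UMIs, the summed level of the list was 905 to 951 CPM at R5 and 750 to 845 CPM at R4, without overlap. Of 5 heat shock and stress genes 1 was tested, HSP101 (LOC_Os05g44340), with 6 UMIs at R5 and 2 at R4.

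**Figure D5:**
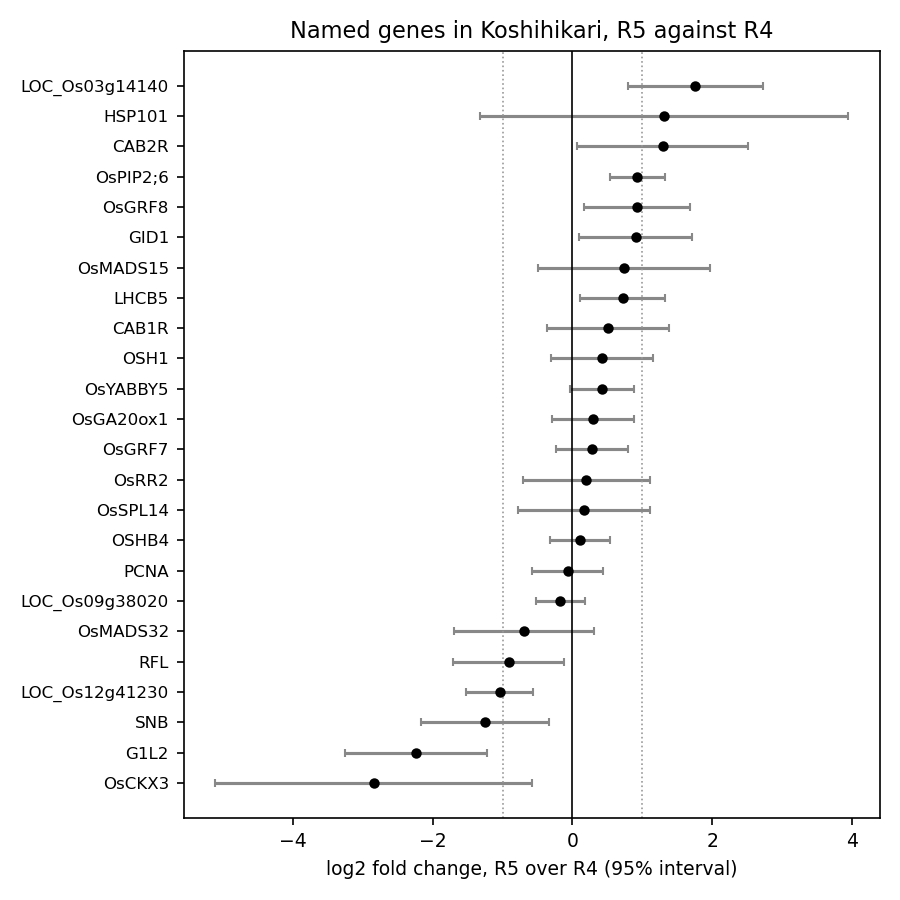
Log2 fold change of R5 over R4 (x axis) for 24 loci of the report (y axis, highest at the top), as a point with its 95% interval from edgeR's fit; LOC_Os02g49760, with 0 UMIs at R4, is left out. Dotted lines mark a 2-fold change; none of the 24 was called, whatever the interval.

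NIL-Gn1, which is named by the labels beside Koshihikari and has 2 R5 libraries and 1 R4 library, gave the same step in a second line. It had 0% called and 3.47% of loci at an unadjusted p under 0.05, and its lone R4 library was assumed to vary like the other groups. Of the 276 loci higher at R5 in Koshihikari at an unadjusted p under 0.05, 180 (65.2%) were also positive in NIL-Gn1, where 51.9% of all tested loci were. Of the 260 lower loci, 146 (56.2%) were negative in NIL-Gn1, against 48.0% of all. At an unadjusted p under 0.01, 46 of 74 higher loci (62.2%) were positive in NIL-Gn1, but 28 of 63 lower loci (44.4%) were negative there, below the share of all loci, with a NIL-Gn1 median of 0.06. The median log2 fold change in NIL-Gn1 was 0.20 for those 276 loci, against 1.53 in Koshihikari, whose values chose them, and -0.13 for the 260 lower ones, against -1.33. Across the 7406 loci the log2 fold changes of the 2 lines had a Pearson r of 0.11, a description across genes that are not independent.

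Of the loci named for their p, OsPIP2;6 had 1593 and 1128 CPM at R5 of NIL-Gn1, against 1083 CPM at R4. G1L2 had 227 and 137 CPM at R5 of NIL-Gn1, against 245 CPM at R4. LOC_Os12g41230 had 322 and 442 CPM at R5 of NIL-Gn1, against 284 CPM at R4, a difference opposite in sign to that in Koshihikari. In the test of the difference between lines, 1 of 7406 loci (0.0135%) was called, LOC_Os02g49760, with 3.58% of loci at an unadjusted p under 0.05. For the other 3 the difference between lines had an adjusted p of 0.729 or more.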

How the data were processed

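The authors deposited 1 table of UMI counts per locus for 35 libraries. Per the labels' protocols, libraries were made by CEL-Seq2 from 100 pg of RNA with 11 to 15 cycles of PCR, and the submitters' processing notes name Bowtie2 and Subread 2.1. The genome build and annotation are not given in the sources used here, so no coordinates are printed. Groups came from the sample titles. Of 55801 loci, 24425 had a UMI and 7406 passed edgeR's filterByExpr, holding 86.7% of all UMIs.

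Counts were fitted with edgeR 4.0.16 (quasi-likelihood F-test, TMM, robust) in R 4.3.3, with 1 coefficient for each of 8 groups over all 35 libraries and Benjamini-Hochberg adjustment over all tested loci. A locus was called at an adjusted p under 0.05. The biological coefficient of variation was 21.1%. An interval is the log2 fold change with its standard error and the quantile of its t distribution at 95%. Alternatives were other scalings, other filters, DESeq2 1.42.0, limma-voom 3.58.1 (with library weights), a replicate block and the compared groups alone. Each library of Koshihikari R5 and R4 was also left out in turn, as was Koshihikari R2 replicate 1. For the difference between lines, each NIL-Gn1 R5 library was left out too. No other library was left out singly. The code was tested on simulated data.

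Named genes were the most abundant tested gene of each list, list genes at an unadjusted p under 0.05 (up to 2 a list), and the 2 higher and 2 lower loci with the smallest p. Other members are given as examples, and LOC_Os03g14140 and the ALOG and aquaporin lists were chosen after their values were seen. The groups and lists were chosen with earlier results of these data known. Of 127 listed genes, 92 matched a RefSeq gene of the same symbol (assembly ASM3414082v1) in chromosome and order, 31 had no entry there and 2 had several. The remaining 2, on another chromosome there, were left out. Counting intervals cover counting error only. Replicates of a group differed by more than sampling noise, so none was merged.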

Additional observations from a re-analysis of the deposited data

Results flagged for a closer look

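LOC_Os02g49760 was the 1 locus whose R5 against R4 difference differed between the lines, by a log2 difference of -8.53 ± 1.77 (SE, NIL-Gn1 minus Koshihikari) with an adjusted p of 0.0297 in edgeR's test. It had 5.97 and 15.2 CPM in the R5 libraries and 59.3 CPM in the R4 library of NIL-Gn1. In Koshihikari it had 67.4, 55.3 and 34.7 CPM in the R5 libraries and 0 in each R4 library, so the fitted size depends on the prior count and is no bound. The direction was the same in all 15 alternatives that tested the locus, and the call held in 7 of them, with adjusted p from 0.00625 to 0.582. It was lost with DESeq2 (0.261), with limma-voom (0.582), without any 1 of the Koshihikari R4 libraries (0.164 to 0.175), without Koshihikari R5 replicate 2 (0.12) or 3 (0.064) and without NIL-Gn1 R5 replicate 1 (0.50). The locus carries 16 UMIs in the 6 Koshihikari libraries.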

How the results depend on the processing

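The count of called loci between R5 and R4 of Koshihikari was 0 and moved with the fit. It was 1 with relative log expression scaling, 2 with no filter, 1 with a mean count of at least 10, 1 with DESeq2, 1 with limma-voom, 4 with only the groups compared and 3 at an adjusted p under 0.1. It was 0 to 2 when 1 library was left out, with 1 without R4 replicate 2, 2 without R5 replicate 5 and, added after seeing the data, 1 without R2 replicate 1. OsPIP2;6 was called in each of these alternatives at 0.05 and in 9 of 15 in all. The others were LOC_Os03g14140 (no filter, and only the groups compared), LOC_Os10g05990 and LOC_Os11g44810 (only the groups compared) and LOC_Os08g42110 (without R5 replicate 5). The adjustment ran over 2364 loci with only the groups compared and over 3491 with a mean count of at least 10, against 7406. The unadjusted p of OsPIP2;6 in edgeR's test was 7.37e-06 and 8.24e-06 there, against 7.69e-06 in the main fit. With only 6 libraries the fit also has its own estimate of the spread. The cause of the moves was not tested. The count for the difference between lines, 1, was 0 with DESeq2 or limma-voom, and 0 to 1 when 1 library was left out. It was also 0 with a mean count of at least 10 or only the groups compared, where LOC_Os02g49760 was not among the tested loci. The lines' difference could not be fitted without the only NIL-Gn1 R4 library.

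The share at an unadjusted p under 0.05 stayed between 5.09% and 7.84%. With no filter, 843 of the loci behind it were higher and 400 lower. Of 380 values of named genes under alternatives, 354 kept their direction and side of the threshold, 11 passed it, 8 lost it and 7 changed sign. The sign changes were of small values: PCNA was 0.012 with no filter and -0.15 to 0.026 with 1 library left out. Over the same omissions OsSPL14 ran from -0.12 to 0.51, OsRR2 from -0.17 to 0.62 and LOC_Os09g38020 from -0.30 to 0.0065. The first component difference of 6.05 was 4.15 to 8.54 with 1 R5 or R4 library left out, at exact permutation p from 0.1 to 0.5. Replicates 2 and 3 occur in both groups. Same-numbered libraries correlated at 0.0149 and 0.0115 in their deviations, the highest values, against -0.0153 to 0.0103 for other pairs. All lay near 0, but 2 such pairs cannot show whether libraries of the same number share a plant or a batch. With the replicate block 0 loci were called (smallest adjusted p 0.0971), 1 for the difference between lines, and 7.14% of loci passed an unadjusted p under 0.05. Depth limits the scarce loci, where 3 UMIs in a library equal 22.1 to 28.2 CPM of all its UMIs, and more on the scale of single genes.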
